A study of Mus musculus with 4 samples.

Results

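A single protein-coding promoter is taken here as the start of a protein-coding gene that has no other protein-coding start diverging from it on the opposite strand within 1 kb. The members described are accessible chromatin regions at such starts. Peak summits of 4 lists were extended by 250 bp on each side and merged where they overlapped, which gave 74669 regions, and a region was a member when a summit in it lay within 1 kb of a single start. This gave 12992 members, 17.4% of all regions. The annotation, GENCODE M1 on the mm9 build, holds 22357 protein-coding gene starts, of which 20760 (92.9%) are single and 1597 are bidirectional, that is, paired with a diverging start. For comparison, 837 regions lay at bidirectional starts alone and 60840 lay within 1 kb of no protein-coding start, and 6 members also held a summit near a bidirectional start.

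The regions come from ATAC-seq of mouse limb cells at embryonic day E11.5, an assay in which the Tn5 transposase inserts sequencing adaptors into accessible DNA. The tissue of every library is labelled as forelimb and hindlimb, the cells were separated with trypsin and fixed in PFA, and every library is of the strain labelled c57bl6.J X 129S6.sv. The 2 mutant libraries carry a stop cassette insertion, a sequence used to end transcription early, and the other 2 libraries are wild type. The study concerns the long non-coding RNA locus Maenli and the limb gene En1, and where the cassette was inserted is not given in the labels. Nothing in the labels says that the libraries of a genotype came from separate embryos, so p-values measure only the spread between these libraries, which may be technical.

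A promoter is the stretch of DNA around a gene start where RNA polymerase II and general transcription factors assemble. In mammals many promoters lie in CpG islands, stretches rich in G and C that keep their CpG dinucleotides, and these are usually free of DNA methylation and open in most cell types. Promoters poor in CpG more often belong to genes used in few cell types and tend to be open only there.

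The peak lists held 79083 and 107827 summits in stop cassette replicates 1 and 2, and 51701 and 68471 in wild type replicates 1 and 2. The lists give no read counts, so the sequencing depth is unknown. Each summit carries the authors' score, a −log10 q-value judging by its lowest values. It served only to rank the summits of a list, as a percentile from 0 (weakest) to 100 (strongest). A start or region is called in a list when that list holds a summit there. The absence of a call says only that no summit passed the authors' threshold there, not that a promoter is closed. Where the genotypes are compared, values are also given with all lists reduced to the strongest 51701 summits, the length of the shortest list, which is named equal length below.

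The sequences of 10 single promoters, 6 with a member at the start and 4 called in no list, show the range of their DNA. Each is the 100 bases before the gene start, 5′ to 3′ on the strand of the gene, read from the mm9 genome, with every CpG in capitals. No annotated exon overlaps any of them. The first 3 lie before starts that have one of the highest ranked members within 1 kb: Arl13b, a small GTPase of the cilium (chr16:62846867-62846966, minus strand), Ebag9 (chr15:44451087-44451186, plus strand) and Exo1, a DNA repair exonuclease (chr1:177810809-177810908, plus strand).
Arl13b: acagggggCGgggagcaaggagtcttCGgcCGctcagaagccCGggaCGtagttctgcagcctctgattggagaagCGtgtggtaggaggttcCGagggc
Ebag9: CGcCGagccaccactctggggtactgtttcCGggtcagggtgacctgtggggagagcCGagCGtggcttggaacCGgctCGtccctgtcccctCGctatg
Exo1: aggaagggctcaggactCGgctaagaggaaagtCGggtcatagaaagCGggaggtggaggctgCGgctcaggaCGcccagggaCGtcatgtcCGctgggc
They hold 7, 8 and 7 CpGs in 100 bases. For Ebag9 the top ranked member lies further upstream than the printed bases. The next 4 belong to limb transcription factor genes: Prrx1 of the limb mesenchyme (chr1:165243842-165243941, minus strand), Hoxd13 of the distal limb (chr2:74506267-74506366, plus strand), Pitx1 of the hindlimb (chr13:55937554-55937653, minus strand) and Tbx5 of the forelimb (chr5:120284572-120284671, plus strand).
Prrx1: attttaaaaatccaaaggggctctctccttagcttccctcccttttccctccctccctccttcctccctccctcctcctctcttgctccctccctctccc
Hoxd13: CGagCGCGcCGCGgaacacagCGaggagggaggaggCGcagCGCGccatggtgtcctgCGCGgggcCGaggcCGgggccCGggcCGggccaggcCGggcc
Pitx1: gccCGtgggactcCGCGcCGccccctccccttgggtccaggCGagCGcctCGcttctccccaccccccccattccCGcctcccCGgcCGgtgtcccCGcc
Tbx5: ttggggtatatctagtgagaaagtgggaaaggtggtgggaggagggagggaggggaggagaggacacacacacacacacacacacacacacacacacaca
Hoxd13 holds 16 CpGs and was called in all 4 lists, whereas Pitx1 holds 11 and was called in none. Prrx1 and Tbx5 hold 0 CpGs here, and Prrx1 was called in all 4 lists while Tbx5 was called in none. The last 3 belong to genes of other tissues: the adult beta globin gene Hbb-b1 of red blood cells (chr7:110976611-110976710, minus strand), albumin (Alb) of the liver (chr5:90889815-90889914, plus strand) and protamine (Prm1) of sperm (chr16:10796980-10797079, minus strand).
Hbb-b1: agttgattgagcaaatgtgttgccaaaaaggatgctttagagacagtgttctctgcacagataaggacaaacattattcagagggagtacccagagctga
Alb: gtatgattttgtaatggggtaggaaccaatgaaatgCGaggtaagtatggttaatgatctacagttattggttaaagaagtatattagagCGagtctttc
Prm1: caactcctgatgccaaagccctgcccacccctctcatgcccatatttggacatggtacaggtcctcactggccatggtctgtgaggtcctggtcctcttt
These hold 0, 2 and 0 CpGs. Hbb-b1 was called in all 4 lists, and Alb and Prm1 were called in none.

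Of the 3 classes of region, single promoters came after bidirectional promoters and before all other regions, both in how often a list held them and in their score ranks. Of the 12992 members, 90.6% and 96.4% were present in stop cassette replicates 1 and 2, and 83.6% and 88.5% in wild type replicates 1 and 2. The same lists held 54.3%, 83.1%, 31.3% and 46.0% of the regions with no protein-coding start within 1 kb. Members were thus held more often than those regions in every list, by a mean of 36.1 ± 16.5 percentage points (SD, n = 4 lists). The exact sign-flip permutation test over lists gave p = 0.125, two-sided, the smallest value that 4 lists allow. The gap was 13.3 points in the longest list and 52.2 points in the shortest, so it was smaller in the list that held more distal regions. Any summit within 1 kb of a single start makes a region a member, so regions merged from several lists have more chances to qualify. The gap is therefore partly built in.

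Of the members, 10404 (80.1%) were held by all 4 lists, 844 (6.50%) by 3 lists, 760 (5.85%) by 2 and 984 (7.57%) by 1. Over all regions the share held by all 4 lists was 32%. It was 91.8% for bidirectional promoters and 20.9% for regions away from protein-coding starts. These shares carry the same limit, since regions with summits from several lists have more chances to lie near a start. At equal length 79.4% of 12372 members and 38.3% of all regions were held by all 4 lists. Members held by all 4 lists were wide, with a median of 1282 bp, because several summits had merged, while members held by 1 list had a median of 501 bp, the width of an isolated extended summit. The median over all members was 1183 bp (range 501 to 3381 bp), against 583 bp over all regions.

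The score ranks followed the same order. The median percentile of the members' strongest summits was 87.8 and 90.9 in stop cassette replicates 1 and 2, and 83.7 and 87.0 in wild type replicates 1 and 2. Bidirectional promoters had medians of 93.5, 95.5, 90.8 and 92.8 in the same order of lists, and regions away from starts had medians of 47.9, 47.8, 42.0 and 46.6. In every list bidirectional promoters lay highest, single promoters next and the remaining regions lowest. Single promoters lay 5.77 ± 1.03 percentile points below bidirectional promoters and 41.3 ± 1.44 above the remaining regions (SD, n = 4 lists; exact sign-flip permutation p = 0.125 for each comparison, two-sided). A region percentile is that of its highest summit, so wide regions with several summits have more chances of a high value.

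**Figure D1:**
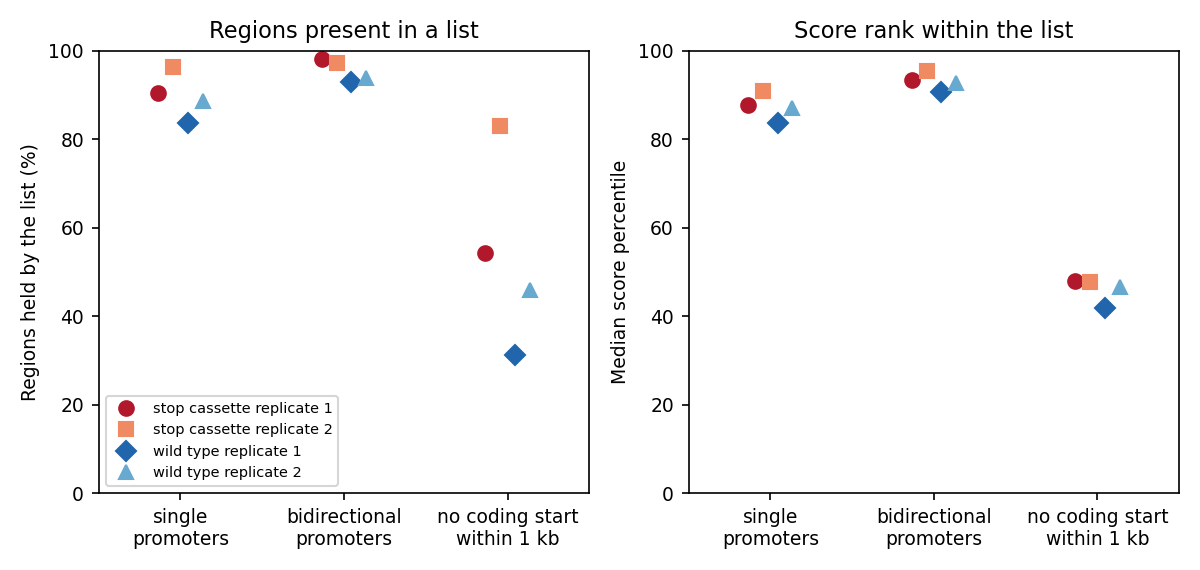
Left, percent of regions of each class held by each peak list. Right, median score percentile of the held regions within the list. Each point is 1 list, and single promoters lie between bidirectional promoters and regions with no coding start within 1 kb in all 4 lists. In the longest list, stop cassette replicate 2, single and bidirectional promoters were held at 96.4% and 97.1%.

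Seen from the side of the lists, single promoters took 35.4% and 28.1% of the summits of stop cassette replicates 1 and 2, and 45.4% and 38.8% of those of wild type replicates 1 and 2. The Wilson 95% intervals reach from 35.0% to 35.7%, 27.8% to 28.4%, 44.9% to 45.8% and 38.4% to 39.2%, and they cover counting error only. Longer lists therefore held smaller shares. Among the strongest 10% of summits the shares were 69.8%, 67.7%, 76.7% and 74.2%, and among the weakest 10% they were 18.4%, 17.2%, 28.9% and 23.5%. A summit near a single start was more frequent at the strong end of each of the 4 lists.

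Members held by few lists also had low ranks. The median of the mean percentile was 24.7 for members in 1 list, 35.4 in 2 lists, 43.7 in 3 lists and 88.7 in all 4 lists. A core of 4699 members (36.2%) was held by all 4 lists with a mean percentile of 90 or more. The 5 members with the highest mean percentile lay at Asah1, the lysosomal acid ceramidase, Arl13b, Ebag9, Lancl2 and Exo1. Asah1 (chromosome 8, 42459148 to 42460917) had percentiles of 99.90, 99.99, 99.98 and 99.99, with stop cassette lists first. The region at Ebag9 (chromosome 15, 44450372 to 44450882) stood out by its place, with the summit nearest to the start 555 bp away, whereas in the other 4 of these regions it lay within 9 to 28 bp of the start. It was 511 bp wide, so the summits of all 4 lists lay within a few bases of each other.

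Turning from regions to genes, 12394 of the 20760 single starts (59.7%) had a summit within 1 kb in at least 1 list and 10598 (51.1%) in all 4 lists. Over all protein-coding starts these shares were 62.3% and 54.1%. Stop cassette replicates 1 and 2 called 55.5% and 58.5% of single starts, and wild type replicates 1 and 2 called 52.8% and 55.4%. Bidirectional starts were called at 95.1%, 95.9%, 94.7% and 95.3% in the same order. Single starts were called less often by 39.7 ± 1.80 percentage points (SD, n = 4 lists; exact sign-flip permutation p = 0.125, two-sided), in 4 of 4 lists.

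The strongest summit lay close to the start. Its median position was 1, 6, 6 and 8 bp before the start in stop cassette replicates 1 and 2 and wild type replicates 1 and 2. Between 52.6% and 53.3% of called single starts had it within 100 bp and between 69.2% and 70.7% within 200 bp. The side was not balanced at a distance: in the 4 lists 19.9% to 20.7% of strongest summits lay more than 200 bp inside the gene and 9.28% to 10.1% more than 200 bp before it. Downstream, the share per 50 bp fell to between 2.10% and 2.39% from 150 to 200 bp and was between 3.20% and 3.34% from 200 to 250 bp, so each list showed a shallow dip followed by a second, lower maximum.

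**Figure D2:**
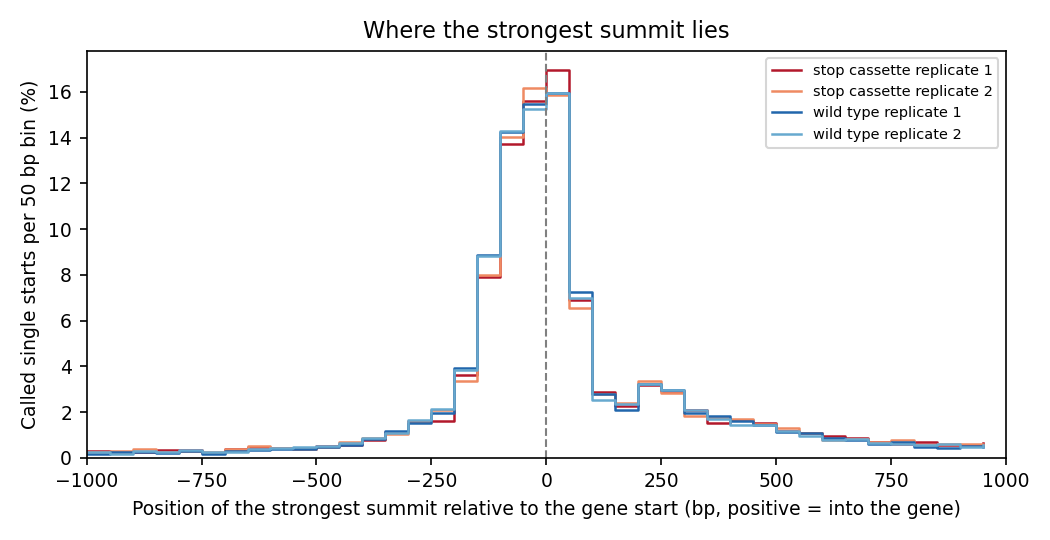
Share of called single starts by the position of the strongest summit, in bins of 50 bp, with positive positions inside the gene. Each line is 1 list, and in all 4 the share peaks within 50 bp of the start and shows a small second maximum from 200 to 250 bp downstream.

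The limit of 1 kb cuts through a sparse range. Of 9890 members whose nearest summit lay under 100 bp from the start, 90.2% were held by all 4 lists, and this share was 73.4% from 100 to 250 bp, 45.5% from 250 to 500 bp, 30.2% from 500 to 750 bp and 24.3% from 750 to 1000 bp. Just outside the limit, in the next 250 bp, it was 27.5%. The members nearest the limit were at Mgmt, a DNA repair gene, and at Imp3, both 1000 bp from the start and both held by 1 list, with percentiles of 5.04 and 23.1. The nearest regions outside were at 1110008F13Rik, 1001 bp away, held by 1 list at percentile 61.4, and at Rgs17, 1002 bp away, held by both wild-type lists at 48.9 and 39.8. In this share, members between 500 and 1000 bp resembled regions beyond the limit more than those at the start itself. The distance is that of the nearest summit, so wide members with summits from several lists have more chances of a short distance. The fall of the share with distance is therefore partly built in.

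CpG content, which the choice of members did not use, separated called from uncalled starts. A start was counted as CpG-rich when the 500 bp centred on it had a GC content of at least 50% and a ratio of observed to expected CpG of at least 0.6. By this measure 9273 single starts (44.7%) were CpG-rich, of which 8987 (96.9%) were called in at least 1 list and 8384 (90.4%) in all 4. Of the other 11487 starts, 3407 (29.7%) were called in at least 1 list and 2214 (19.3%) in all 4.

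Stop cassette replicates 1 and 2 called 94.0% and 96.4% of CpG-rich starts, and wild type replicates 1 and 2 called 92.1% and 94.3%. The other starts were called at 24.3%, 27.9%, 21.1% and 24.1% in the same order. The difference was 69.8 ± 1.05 percentage points (SD, n = 4 lists), in the same direction in 4 of 4 lists (exact sign-flip permutation p = 0.125, two-sided). Among called starts the median percentile was also higher in CpG-rich ones, by 14.1 ± 2.08 points (p = 0.125, same exact test). The share called in at least 1 list rose in every step of the ratio from 4.40% of 1977 starts under 0.1 to 99.1% of 1166 starts at 1 or above. Position differed as well: the interquartile range of the strongest summit's position was 148 to 155 bp at CpG-rich starts and 427 to 454 bp at other called starts.

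**Figure D3:**
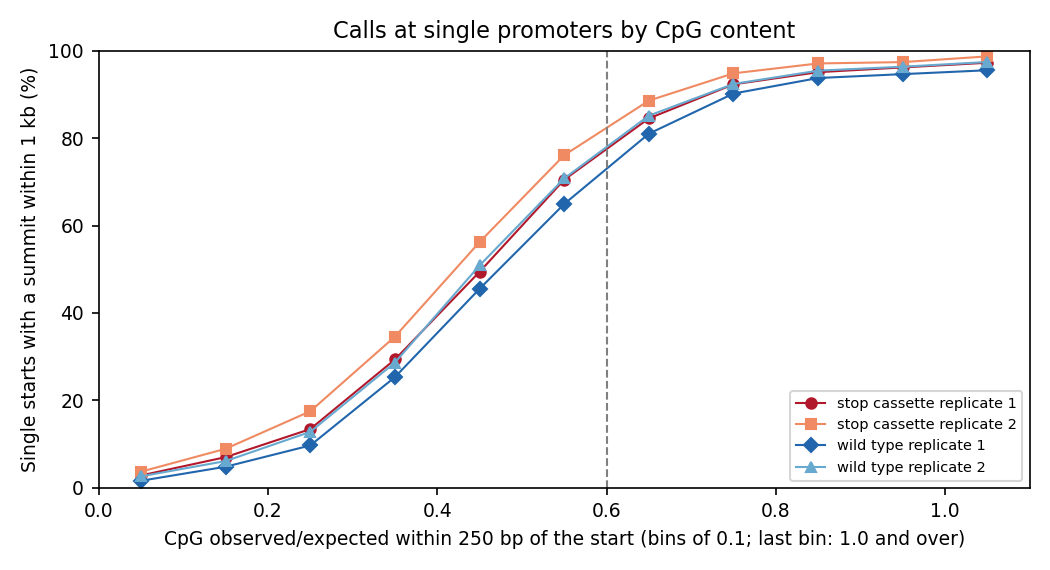
Percent of single starts with a summit within 1 kb, by the ratio of observed to expected CpG in the 500 bp around the start. Each line is 1 list, the dashed line marks the ratio of 0.6, and the 4 lines rise together from under 5% to over 95%.

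Other features of the gene model separated starts too. Genes with 1 exon were called in at least 1 list at 16.9% of 2724 starts, and genes with more exons at 66.2% of 18036. Among CpG-rich starts alone these shares were 84.2% and 97.5%. Starts of genes with the annotation status KNOWN were called at 61.1% and the rest at 23.1%, and starts of genes that have only a Gm number as a name at 14.1%. A non-coding gene diverging within 1 kb was annotated at 503 single starts, of which 87.1% were called, against 59.0% of the rest. In all 4 lists the shares were 81.7% and 50.3%. Among CpG-rich starts they were 94.4% and 90.2%, and among the others 34.6% and 19.1%, so the gap was smaller within each class of CpG content than across both.

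Short sequence motifs of promoter-binding factors were counted in the window from 250 bp before to 50 bp after the start, on both strands. The Sp factor motif GGGCGG was found at 41.5% of single starts and 43.4% of all protein-coding starts. It stood at 66.5% of starts called in all 4 lists and at 9.68% of uncalled starts, but its letters include a CpG. So do the letters of the ETS, YY1, NRF1, cyclic AMP response element and E-box motifs below. Calls varied with CpG content also below the ratio of 0.6, from 4.40% under 0.1 to 78.3% from 0.5 to 0.6 in at least 1 list. Whether these motifs go with calls beyond their CpG content was not tested. Within CpG-rich starts, those with the motif were called in all 4 lists at 91.5% and those without at 87.6%, and within the other starts at 46.5% and 14.0%. The ETS motif CCGGAAG (10.8% of all protein-coding starts) and the motif AAGATGGCG bound by YY1 (1.84%) went with the highest shares: 96.2% of CpG-rich starts with the ETS motif and 97.5% of those with the YY1 motif were called in all 4 lists, against 89.2% and 90.2% without. At other starts the ETS motif went with 40.3% against 18.6%, and the YY1 motif with 25% of 48 starts against 19.2%.

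Motifs rich in A and T showed the opposite order. The letters TATAAA were searched between 40 and 20 bp before the start on the strand of the gene, where the TATA box that positions RNA polymerase II lies, and were present at 2.23% of all protein-coding starts. CpG-rich starts with them were called in all 4 lists at 76.1% (71 starts) against 90.5% without, and other starts at 5.45% (422 starts) against 19.8%. The homeodomain motif TAATTA, present at 4.84% of all protein-coding starts, gave 84.7% against 90.5% at CpG-rich starts and 11.2% against 19.9% at others. The CCAAT box bound by NF-Y, present at 37.9%, gave 92.8% against 89.0% and 19.4% against 19.2%. For NRF1 (GCGCATGCG, 2.10%) the shares were 95.2% against 90.2% and 50% against 19.2%, and for the cyclic AMP response element TGACGTCA (2.32%) 94.7% against 90.3% and 42.6% against 19.0%. The E-box CACGTG (7.78%) gave 89.3% against 90.6% and 28.0% against 18.9%, so its order differed between the classes. A match is only a match of letters, and these motifs can overlap each other.

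The 8366 single starts with no call in any list (40.3%) were mostly poor in CpG: 8080 of them were not CpG-rich. Olfactory and vomeronasal receptors made up 1425 of them (17.0%), genes named only by a Gm number 1701 (20.3%), and genes with 1 exon 2264 (27.1%), and these groups overlap. Seen from the groups, 99.3% of 1435 such receptor starts, 85.9% of 1980 Gm starts and 83.1% of 2724 starts of 1-exon genes were uncalled. Over all single starts this share was 40.3%. In 706 cases (8.44%) another annotated transcript start of the same gene was called, so that gene was not without an accessible start. Of the 286 uncalled CpG-rich starts, 70 belonged to Gm genes and 31 had another start called.

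Families of genes used in specialised tissues had almost no call. None of the 322 single starts of vomeronasal receptors, which detect pheromones, was called in any list, and none of 52 taste and trace amine receptors or of 34 cornified envelope proteins of the skin barrier. Among 1113 olfactory receptors, 10 starts (0.898%) were called and 2 in all 4 lists. Those 2 were Olfr94, with percentiles of 65.2 and 81.2 in the stop cassette lists and 61.4 and 83.1 in the wild-type lists, and Olfr658, with 58.0, 79.4, 58.1 and 82.2. Neither of them was CpG-rich, and the genotypes overlap in both.

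Keratins and keratin-associated proteins of hair and skin were called at 8 of 97 starts. All 8 were called in stop cassette replicate 2, the longest list, and 1 was called in all 4 lists, at Krt18, a keratin of simple epithelia. By the mean over the lists that called them, the best ranked were Krt35, with a percentile of 71.1, and Krtap16-4, with 57.7, each in that list alone. Krt8 had 67.6 in that list and 11.3 in wild type replicate 1. Defensins, antimicrobial peptides, were called at 3 of 52 starts, with Defb11 in all 4 lists (49.1 and 83.5 in the stop cassette lists, 46.6 and 78.7 in the wild-type lists) and Defb30 in 1 list (34.7).

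The placental prolactins and pregnancy glycoproteins were called at 1 of 38 starts, Psg16, in 3 lists (59.1, 57.7 and, in wild type replicate 2, 50.7). The UDP-glucuronosyltransferases, which conjugate drugs and steroids, were called at 1 of 20 starts, Ugt1a7c, in 1 list (7.55). Clustered protocadherins, adhesion proteins of neurons, were called at 2 of 24 starts, each in 1 list, at Pcdhgc5 (20.7) and Pcdhb1 (19.7). C-type lectin and killer receptors of immune cells were called at 7 of 60 starts, serpins at 12 of 59, cytochrome P450 genes at 21 of 97, chemokines at 10 of 34 and interleukins and their receptors at 29 of 83. All of these shares were below the 59.7% of single starts as a whole.

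Families whose products every cell uses were called almost throughout. All single starts were called at 59.7% in at least 1 list and 51.1% in all 4, and CpG-rich single starts at 96.9% and 90.4%. Between 70% and 100% of the single starts in each family of this paragraph were CpG-rich. Whether these families differ from other CpG-rich starts was not tested. All 19 single starts of RNA polymerase subunits, all 27 of tRNA synthetases and all 14 of replication licensing and origin proteins were called in all 4 lists. Cytosolic ribosomal proteins were called at 72 of 75 starts (70 in all 4 lists), mitochondrial ribosomal proteins at 59 of 61 (58), respiratory chain and ATP synthase subunits at 62 of 68 (59), proteasome subunits at 35 of 36 (32), translation initiation factors at 48 of 51 (47), splicing factors at 36 of 37 (36) and Rab GTPases of membrane traffic at 59 of 64 (57). The median of the mean percentile of their called starts lay between 88.3 in splicing factors and 95.0 in replication licensing, against 86.3 over all called single starts. Genes picked by a name pattern for chaperonin subunits were called at 8 of 10 starts, all 8 in all 4 lists. The pattern also takes longer names that begin with Tcp1, so other genes can be among these 10. In this group of families the 4 lists gave nearly the same shares, for instance 96%, 96%, 93.3% and 94.7% for cytosolic ribosomal proteins.

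Several of the few uncalled starts in these families belong to variants known from particular tissues, or to genes whose annotated 5′-most start was not the called one. For the ribosome they were Rpl10l and Rpl39l, which are testis-expressed copies, and Rpl3l of striated muscle. For the respiratory chain, where 6 starts were uncalled, the first by name were Atp5l-ps1, Cox6a2 of striated muscle and Cox7b2. The proteasome family lacked only Psmb11, the subunit of the thymus, and the initiation factors lacked Eif4e1b of oocytes, Eif4ebp3 and Eif4g1. In Eif4g1, Mrps24 and Snrpn another annotated start of the gene was called. Among mitochondrial ribosomal proteins the other uncalled start was Mrps36-ps1, and among Rab GTPases, where 5 were uncalled, the first by name were Rab17, Rab19 and Rab25, of which Rab17 and Rab25 are known from epithelia. Rpl10l and Rpl39l were CpG-rich, so a CpG-rich start was not always called.

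Replication histones, the intronless genes that package new DNA in S phase, were called at 38 of 40 single starts. Stop cassette replicates 1 and 2 called 95% and 92.5% of them and wild type replicates 1 and 2 called 80% and 90%, with 32 starts in all 4 lists. Their median percentile of 69.6 lay below the 86.3 of all called single starts. The 2 uncalled genes were Hist1h1t, the testis linker histone, and Hist1h4k. Another 27 histone starts were bidirectional and are not members. Histone genes are near-identical copies, and the deposited lists were made from reads above a mapping quality of 30, which removes reads that fit several copies. Its part in these values was not tested.

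**Figure D4:**
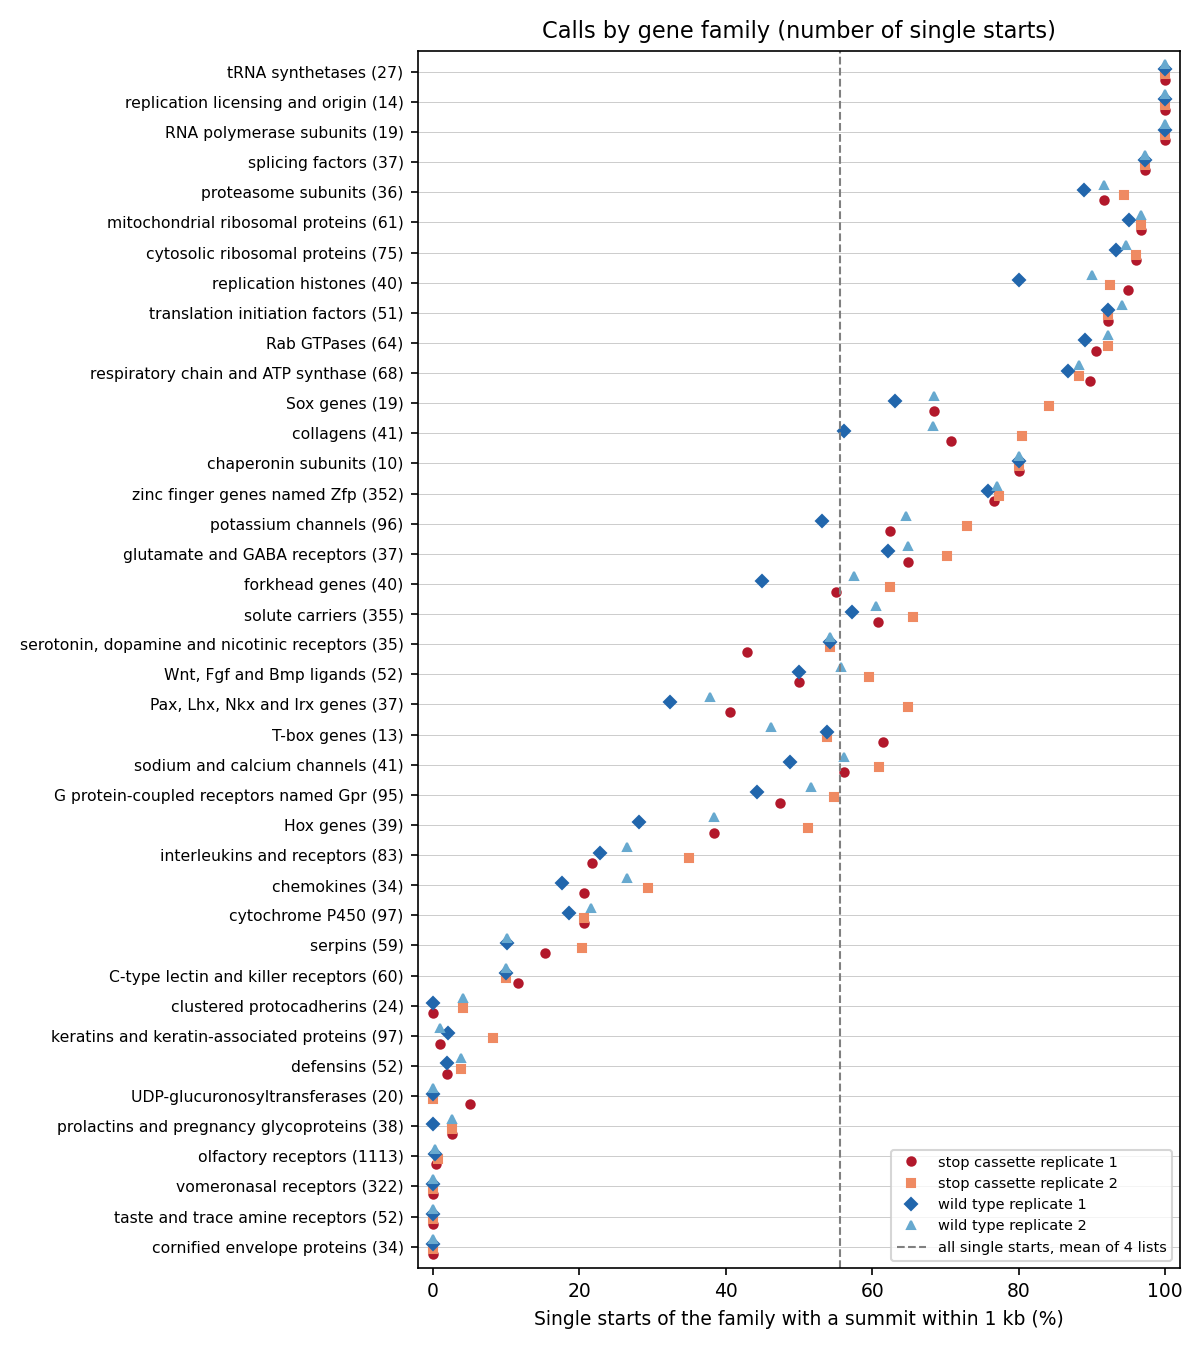
Percent of single starts with a summit within 1 kb in each gene family, by list, with the number of single starts in brackets. The dashed line is the mean over all single starts, and families range from 0 called starts in 3 families to every start in 3 families. Families were picked by gene name, and the chaperonin row can hold other genes whose names begin with Tcp1.

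Families of developmental regulators were called in at least 1 list at 56.4% (Hox) to 84.2% (Sox), beside 59.7% of all single starts. In all 4 lists their shares ran from 21.6% in Pax, Lhx, Nkx and Irx genes to 57.9% in Sox genes. Only Sox genes lay above the 51.1% of all single starts there. Hox genes, which set position along body and limb axes, had 22 of 39 single starts called in at least 1 list and 9 in all 4. Their percentages were 38.5% and 51.3% in the stop cassette lists and 28.2% and 38.5% in the wild-type lists. Genes of the Pax, Lhx, Nkx and Irx families of homeodomain factors had 24 of 37 called and 8 in all 4. Forkhead genes had 27 of 40 (15 in all 4), Sox genes 16 of 19 (11, or 57.9%), T-box genes 8 of 13 (5), and Wnt, Fgf and Bmp ligands, the secreted signals of the limb bud, 34 of 52 (25). Some uncalled starts belonged to genes with another annotated start that was called. This held for 6 of 17 uncalled Hox starts and 4 of 13 uncalled Pax, Lhx, Nkx and Irx starts. It held for 3 of 13 forkhead, 0 of 3 Sox, 1 of 5 T-box and 4 of 18 ligand starts, against 8.44% of all uncalled single starts.

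Counts among CpG-rich starts alone were as follows. Of the 21 CpG-rich Hox starts 7 were called in all 4 lists (33.3%), and of 23 CpG-rich Pax, Lhx, Nkx and Irx starts 3 (13.0%), against 90.4% of all CpG-rich single starts. The same shares were 55.6% of 27 forkhead starts, 69.2% of 13 Sox starts, 66.7% of 6 T-box starts and 59.4% of 32 ligand starts. Called starts in these 6 families had a median percentile between 41.7 in Hox genes and 61.3 in T-box genes, against 86.3 over all called single starts. Collagens, the fibres of connective tissue, had 33 of 41 called (22 in all 4), and zinc finger genes named Zfp, a large group of DNA-binding proteins, had 275 of 352 called (263 in all 4) at a median percentile of 90.5. These lists of genes were put together with earlier results on these libraries known, and their counts are descriptions.

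Genes of neurons and cell membranes were called at shares from 56.8% in receptors named Gpr to 77.1% in potassium channels, beside 59.7% of all single starts. Potassium channels were called at 74 of 96 starts, but at 45 in all 4 lists, with 62.5% and 72.9% in the stop cassette lists and 53.1% and 64.6% in the wild-type lists. Glutamate and GABA receptors were called at 27 of 37, sodium and calcium channels at 25 of 41, serotonin, dopamine and nicotinic receptors at 23 of 35, receptors named Gpr at 54 of 95 and solute carriers, the membrane transporters, at 239 of 355. Their called starts had median percentiles between 46.0 and 82.2.

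Marker genes of the labelled tissue and of other tissues were described. Their counts cannot identify the tissue, since neuron and glia genes were called nearly as often as limb genes, at 85.7% and, in all 4 lists, 50%. Of 25 single starts of limb mesenchyme and patterning genes, 22 (88%) were called in at least 1 list and 14 (56%) in all 4. These stand beside 62.3% and 54.1% of all protein-coding starts, and 59.7% and 51.1% of single starts. Of the 15 CpG-rich limb starts, 10 (66.7%) were called in all 4 lists, against 90.4% of all CpG-rich single starts. Gli3, a mediator of hedgehog signalling, ranked highest among the 25 limb genes, with percentiles of 79.0 and 92.5 in the stop cassette lists and 85.2 and 91.1 in the wild-type lists. Twist1, a mesenchymal factor, had 71.6, 80.3, 73.1 and 77.1, and Hand2 of the posterior limb had 70.6, 78.0, 51.4 and 85.7. In all 3 the values of the genotypes overlap.

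Hoxd13 had percentiles of 54.8 and 59.5 in the stop cassette lists and 56.6 and 57.9 in the wild-type lists, close together, although its 100 bases printed above hold 16 CpGs. Prrx1, whose 100 bases hold none, had 47.0 and 63.2 in the stop cassette lists and 8.30 and 64.6 in the wild-type lists, where wild type replicate 1 stood apart. Hoxa13 had 26.7, 78.0, 40.1 and 58.2, and Grem1, an antagonist of BMP signals, 46.7, 76.2, 39.5 and 62.2. Of the limb gene starts, Gli3 alone exceeded the median percentile of single promoters in a list, and did so in 3 lists.

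En1, the ventral ectoderm gene named in the series title, was called at its start in stop cassette replicate 2 alone, at percentile 52.7, and at equal length at 1.40. A second member beside it, from 122499235 to 122500701 on chromosome 1, was held by stop cassette replicate 2 (44.2) and by wild type replicate 2 (16.6), whose summit lay 1068 bp from the start, just outside the limit for a call. Wnt7a, the dorsal ectoderm signal that En1 represses on the ventral side, was called in stop cassette replicates 1 and 2 (1.71 and 54.5). Calls by both stop cassette lists only were found at 1.11% of single starts. Lmx1b, the dorsal mesenchyme factor, was called in stop cassette replicate 1 and wild type replicate 2 (2.90 and 33.4). Shh of the posterior signalling centre was called in stop cassette replicate 2 alone (28.5). At equal length Wnt7a was called in stop cassette replicate 2 alone (5.07), Lmx1b in wild type replicate 2 alone (11.8) and Shh in no list. Each of these 4 genes is active in only a part of the limb bud. In these bulk libraries fewer cells of a type and less open DNA per cell cannot be told apart. The gene starts of Tbx5, Pitx1 and Prrx2 were called in no list, and Tbx4 of the hindlimb was called in 3 (18.5, 63.4 and, in wild type replicate 2, 27.2). For 2 of the 3 uncalled limb genes another annotated start of the same gene was called in at least 1 list.

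The other marker lists are read beside the same 62.3% and 54.1%. Cartilage genes were called at 7 of 10 starts (70%), 5 of them in all 4 lists (50%). Col11a1, a fibrillar collagen of cartilage, had percentiles of 88.6, 97.7, 93.4 and 98.1, and Sox9, a key transcription factor of cartilage, 55.04, 81.1, 61.7 and 54.5, in both with the stop cassette lists first. Genes of the limb ectoderm and apical ridge were called at 11 of 17 starts (64.7%) and 4 (23.5%) in all 4 lists (Dlx6, Krt18, Epcam and Cdh1), and Fgf8, the ridge signal, was called in stop cassette replicate 2 alone (30.1). Muscle precursor genes were called at 6 of 9 starts (66.7%) and only Met, the receptor that guides the migrating precursors, in all 4 lists (65.5, 78.1, 59.0 and 65.3).

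**Figure D5:**
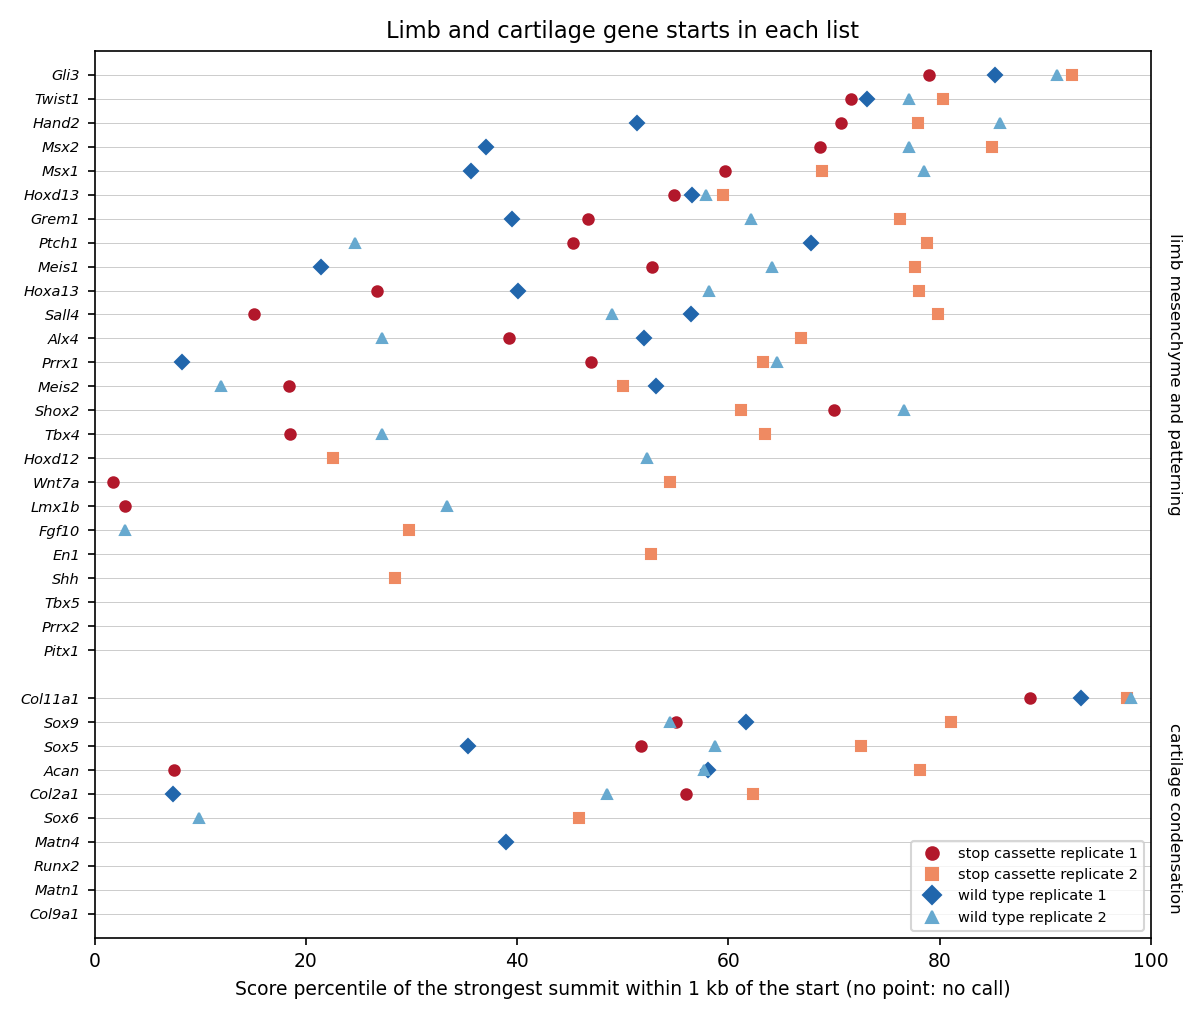
Score percentile of the strongest summit within 1 kb of the start for limb and cartilage genes, 1 row per gene and 1 point per list that called it. Limb genes spread from no call to 92.5, and Col11a1 leads the cartilage genes, at 88.6 to 98.1.

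Markers of other tissues were unequal. None of 14 liver gene starts and none of 13 starts of testis and oocyte genes was called in any list, including Alb and Prm1 printed above. In 1 liver gene and in 1 of the testis and oocyte genes another annotated start was called. Endothelial genes were called at 7 of 10 starts (70%), and 2 (20%) in all 4, with Kdr, the VEGF receptor (82.2, 90.3, 70.2 and 81.7), and Erg. Neuron and glia genes were called at 12 of 14 starts (85.7%), 7 (50%) in all 4, among them Syt1 (79.1, 93.1, 90.9 and 95.2) and Snap25 (80.5, 93.1, 84.1 and 95.0), both proteins of synaptic vesicle release whose starts are not CpG-rich. Spi1, Mymk and Map2 were not matched by symbol in the annotation, and Pecam1 and Gdf9 have bidirectional starts.

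Blood genes were called at 6 of 12 starts (50%), 4 (33.3%) in all 4 lists. Hbb-b1 had percentiles of 92.2 and 86.7 in the stop cassette lists and 72.8 and 20.7 in the wild-type lists, and Epor, the erythropoietin receptor, 87.1 and 93.8 against 51.5 and 80.8. In both genes both stop cassette values lay above both wild-type values. Of all single starts called in all 4 lists, 40.6% had that order and 4.28% the reverse.

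Other red cell genes were less uniform. Klf1, the erythroid factor, had 84.8 and 67.7 in the stop cassette lists, 22.8 in wild type replicate 1 and no call in wild type replicate 2, Alas2 of haem synthesis had 57.1 and 22.7 in the stop cassette lists and none in wild type, and Tal1 had 81.0, 62.1, 1.44 and 72.6, where the genotypes overlap. At equal length, where 20.3% of single starts called in all 4 lists have both stop cassette percentiles above both wild-type percentiles and 20.3% have them below, Epor kept that order (80.3 and 87.2 against 51.5 and 74.5). Hbb-b1 did not (88.1 and 72.3, against 72.8 and no call). Klf1 then had 76.8 and 32.7 in the stop cassette lists, 22.8 in wild type replicate 1 and no call in wild type replicate 2. Alas2 was then called in stop cassette replicate 1 alone (34.4). In the lists as deposited, 1.11% of single starts were, like Alas2, called by both stop cassette lists only. Globin genes have near-identical copies, so their values are uncertain under a filter on mapping quality. Gata1 and Hba-a1 of the red cell and Ptprc, Csf1r, Itgam and Cd3e of white cells were called in no list. For 1 of these 6 genes another annotated start was called. Whether the number of blood cells differed between libraries was not tested.

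The genotypes were compared over the libraries. Single starts were called at 57.0% ± 2.13 in the stop cassette lists and 54.1% ± 1.85 in the wild-type lists (SD, n = 2 each), a difference of 2.83 percentage points (exact permutation p = 0.333, two-sided, the smallest value that 2 against 2 lists allow). The stop cassette lists also held more members, 93.5% ± 4.14 against 86.1% ± 3.52, and ranked them higher, with a median percentile of 89.4 ± 2.19 against 85.3 ± 2.34 (both exact permutation p = 0.333, two-sided). A smaller share of their summits lay at single promoters, 31.7% ± 5.13 against 42.1% ± 4.64 (exact permutation p = 0.333). Stop cassette lists were longer than wild-type lists, so list length and genotype cannot be told apart in these values. Leaving out stop cassette replicates 1 and 2 and wild type replicates 1 and 2 in turn gave differences of 4.34, 1.33, 1.52 and 4.14 points in starts called, 5.49, 2.27, 2.29 and 5.67 in the median percentile, and −14.0, −6.73, −7.07 and −13.6 in the share of summits.

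At equal length the differences in starts and ranks changed sign and were small, while the difference in the share of summits kept its direction. Stop cassette replicates 1 and 2 then called 51.4% and 53.4% of single starts, and wild type replicates 1 and 2 called 52.8% and 53.2%. The difference was −0.636 percentage points (exact permutation p = 1, two-sided). The median percentiles were 83.2, 83.8, 83.3 and 83.7, a difference of −0.0210 (p = 1, same exact test). The genotypes overlap in both measures, and in the members held, at 88.3%, 90.8%, 89.0% and 89.7%. The share of summits at single promoters was 40.6% and 37.4% in the stop cassette lists and 45.4% and 43.2% in the wild-type lists, which do not overlap, a difference of −5.28 percentage points (exact permutation p = 0.333, two-sided).

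Few members were specific to a genotype, that is, held by both of its lists and by neither list of the other. There were 408 members specific to stop cassette (3.14%), against 10% of all regions, and 19 specific to wild type (0.146%), against 0.313% of all regions. At equal length there were 169 (1.37%, against 5.21% of all regions) and 133 (1.08%, against 2.24%). The rule is looser where a genotype has 1 list. Without stop cassette replicates 1 and 2 and wild type replicates 1 and 2 in turn, there were 1124, 800, 614 and 1008 stop cassette-specific members and 47, 210, 148 and 76 wild type-specific members.

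Specific members were weak and often lay beside a start that both genotypes called. The median of their mean percentile was 38.7 for stop cassette and 45.3 for wild type. For 205 of the 408 stop cassette-specific members (50.2%) and 11 of the 19 wild type-specific ones (57.9%) the other genotype had a summit within 1 kb of the same start, in another merged region. Counted by starts, 230 single starts (1.11%) were called by both stop cassette lists only and 8 (0.0385%) by both wild-type lists only, close to the 1.04% and 0.0403% of all protein-coding starts.

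The 3 stop cassette-specific members with the highest mean percentile lay at Clta, a clathrin light chain of endocytic vesicles (chromosome 4, 44016966 to 44017949), at Pxt1, a testis gene (chromosome 17, 29079042 to 29079546), and at Gpr56, an adhesion receptor (chromosome 8, 97508843 to 97509345). Their percentiles in stop cassette replicates 1 and 2 were 86.3 and 84.5 for Clta, 87.6 and 82.4 for Pxt1 and 82.0 and 81.8 for Gpr56. Wild-type summits came no nearer than 7738 bp to the summits at Clta, 9610 bp to those at Pxt1 and 829 bp to those at Gpr56, whose start was called in all 4 lists. All 3 stayed specific at equal length, and none of the starts was CpG-rich.

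The 3 wild type-specific members lay at Pdp1, a phosphatase of the pyruvate dehydrogenase complex (chromosome 4, 11892667 to 11893174), at Hus1 of the DNA damage checkpoint (chromosome 11, 8910397 to 8910898) and at Ebag9 (chromosome 15, 44451101 to 44451613). Their percentiles in wild type replicates 1 and 2 were 80.8 and 87.8 for Pdp1, 78.7 and 83.4 for Hus1 and 71.4 and 71.3 for Ebag9. In each of them the nearest stop cassette summit lay between 570 and 723 bp from the wild-type summits and the start was called in all 4 lists. At these starts the lists differed in which summit was listed, not in whether the start had a call.

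Among autosomes the share of single starts called in at least 1 list was lowest on chromosome 14 (47.2%) and chromosome 7 (47.9%). Without olfactory and vomeronasal receptors it was 49.2% on chromosome 14 and 59.6% on chromosome 7, and on chromosome 2 it was 71.0% instead of 59.3%. On the X chromosome 48.0% of 894 starts were called, and 48.4% without those receptors, and on the Y chromosome 3 of 17.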

How the data were processed

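ATAC-seq peak lists of 4 mouse limb libraries were used, 1 per library. The deposited lists give 1 bp summits on mm9 with the authors' score, which behaves as −log10 of a q-value: its lowest value, 1.30 to 1.31 in the 4 lists, corresponds to a q-value of 0.05. Per the submitters' processing notes, Bowtie2 2.2.6 and Picard were used. Per the names in the deposited lists, duplicate and mitochondrial reads were removed and a mapping quality of 30 was applied. The peak caller, any read shift for the transposase and any control are not given in the sources used here. Names inside the wild-type lists carry a shared replicate number with a sub-number, and those inside the stop cassette lists carry separate numbers.

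Chromosome lengths were checked against NCBIM37, and 0 summits lay beyond the end of its 21 chromosomes. Another 390 summits lay on other sequences. Gene starts came from GENCODE M1, with 10 duplicate records merged. A start was bidirectional when a protein-coding start on the opposite strand pointed away from it 0 to 1000 bp upstream. Tests were exact permutation tests over lists, with all assignments enumerated in Python 3.11.15 and NumPy 2.4.6. Wilson intervals came from SciPy 1.17.1. The counting was tested on the deposited lists after summits of 1 genotype were removed at randomly drawn members, and on a small made-up set of starts.

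The members and gene lists were chosen with earlier results of these data known. Genes named are the markers described, the 5 highest ranked members in all 4 lists, the 3 highest ranked specific to each genotype, up to 2 called starts in families under 10% called, up to 3 uncalled by name in families over 90%, and the regions nearest the 1 kb limit. Alternatives were equal list lengths, a stricter score, other extensions and start limits, transcript starts, other CpG limits, paired replicate numbers and leaving out each library. The values of 1 marker gene are not reported here.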

Additional observations from a re-analysis of the deposited data

How the results depend on the processing

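Over 112 alternatives, 83 kept their direction or stayed within the set limits, 27 moved a count or share and 2 reversed. The 2 reversals came at equal list length, where the stop cassette minus wild type difference was −0.636 percentage points in single starts called and −0.0210 in the median percentile. The number of stop cassette-specific members was 169 at equal length, 699 with scores above the pooled median of 5.83, 2352 and 189 with extensions of 100 and 500 bp, 203 with summits within 500 bp of the start, 758 with all 69965 transcript starts, and 614 to 1124 when each library was left out. The wild type-specific number was 133 at equal length, 834 and 8 with the 2 extensions, 9 within 500 bp, 30 with transcript starts, and 47 to 210 when each library was left out. The percent of members held by all lists was 70.0 with the stricter score, 47.0 and 86.5 with the 2 extensions, 86.3 within 500 bp, 73.2 with transcript starts, and 80.5 to 82.9 when each library was left out. With the replicate numbers as a block, the share of list summits, starts called and median percentile differed by −10.4, 2.83 and 4.02 (exact permutation p = 0.5, the smallest value that 2 pairs allow). Deviations of same-numbered libraries correlated at 0.190 over 10598 starts, and nothing in the labels says that the numbers pair the libraries. Because depth is unknown, no limit of detection can be given for an uncalled start.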
